A study of Brassica rapa subsp. chinensis with 2 samples.

Results

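The table of stem transcripts analysed here holds 33087 *Brassica rapa* genes, and 13 of them carry the protein names of the enzymes that make or use wax alkanes. They were found by name alone, as the rows whose best protein match is ECERIFERUM 1 (*CER1*, 2 genes), CER1-like 2 (4 genes), ECERIFERUM 3 (*CER3*, 4 genes) or Alkane hydroxylase MAH1 (*MAH1*, 3 genes). The rule uses the names only, and the names were chosen with earlier results of these data known. Stems at the bolting stage were compared between ‘CX001’, a wax-less doubled-haploid line of flowering Chinese cabbage carrying the wax-less locus *wlm1*, and ‘FT’, a waxy doubled-haploid line of Chinese cabbage. Each line was represented by 3 RNA libraries with no treatment listed in the labels. According to the study's methods, germinated seeds were vernalized in the cold and the plants raised in a greenhouse, while the labels name an experimental base. The sources used here do not say whether the libraries came from separate plants, so the p-values measure the spread between libraries only. The lines belong to different crop types, so effects of *wlm1* cannot be told apart from other differences between their genomes.

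Cuticular wax covers the aerial epidermis of land plants and limits water loss. In Arabidopsis, very-long-chain acyl-CoAs built by the elongase complex are converted to alkanes by CER1, which works together with CER3 and with cytochrome b5 as an electron carrier. MAH1, a cytochrome P450 of the epidermis, then oxidizes stem alkanes to secondary alcohols and ketones. A competing branch starts with the reductase FAR3 (CER4) and gives primary alcohols. *B. rapa* descends from an ancestor whose genome was triplicated, so an Arabidopsis gene often has several copies in it.

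The study designed primers on *BraA09g066480.3C*, the *CER1* match at the end of chromosome A09, and across the end of that chromosome. They are shown because this copy carries the largest difference described here. The gene itself was amplified with the pairs named BraA09g066480.3C-1 and BraA09g066480.3C-2. Primer1 and Primer2, the pairs for the chromosome end, share a forward primer and differ in the reverse one. The study reports that Primer1 and the gene itself were amplified in ‘FT’ only, and Primer2 in ‘CX001’ only. It reports this gene as lost from the ‘CX001’ genome. All letters are in lower case, and no part is marked.
BraA09g066480.3C-1 forward: aacaccagatttagaaagccata
BraA09g066480.3C-1 reverse: gacaaacaaagtagaaaacgca
BraA09g066480.3C-2 forward: cctcgtattacccttcttgct
BraA09g066480.3C-2 reverse: acatacgaaggagtgtagcagag
Primer1 and Primer2 forward: gatacacatgattttaaaacca
Primer1 reverse: atataatgtaagtcaaga
Primer2 reverse: taagattacatatatgttttatg

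The deposited values are line means of normalized counts. The whole reads of each library behind them were worked out from these means for 33020 genes, among them all 13 copies. Each gene had exactly 1 solution per line among the splits searched, which for high means were those not far from even. The libraries of a line are called A, B and C by the worth of a read, and the letters are not the study's own numbers. The resolved genes held 14688985 to 16536092 reads in the ‘CX001’ libraries and 14788137 to 15409489 in the ‘FT’ libraries. A level is given as RPKM, the reads scaled to the library's reads in resolved genes and to the coding length in kb, with its SD over 3 libraries. Fold changes are ‘CX001’ over ‘FT’ on the log2(normalized count + 1) scale, which understates the change of weakly read genes. A gene passed at an adjusted p under 0.05 from limma, with Benjamini-Hochberg adjustment over the 28703 genes that had at least 10 reads, provided that the log2 fold change exceeded 1 in size. Of all genes tested, 30.2% passed, 14.6% higher and 15.6% lower in ‘CX001’.

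Of the 13 copies, 9 had enough reads for the test, 4 did not, and 5 passed. Both of the *CER1* matches and 1 *MAH1* match were lower in ‘CX001’ stems, and 2 CER1-like copies were higher. The weakly read *CER1* match, *BraA04g000020.3C*, met the read minimum through ‘FT’ alone, and the CER1-like copy *BraA04g026730.3C* met it through ‘CX001’. No *CER3* copy passed by limma, with 1 of the 3 tested at an unadjusted p under 0.05. Over both lines together, the copies that carried nearly all of the reads were 1 of *CER1*, 2 of *CER3* and 1 of *MAH1*. These strong copies lay on A09, A02, A10 and A09. In ‘CX001’ alone, the *CER1* copy on A09 held 42 reads, fewer than the CER1-like copies *BraA05g007850.3C* (329) and *BraA04g026730.3C* (158).

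**Figure D1:**
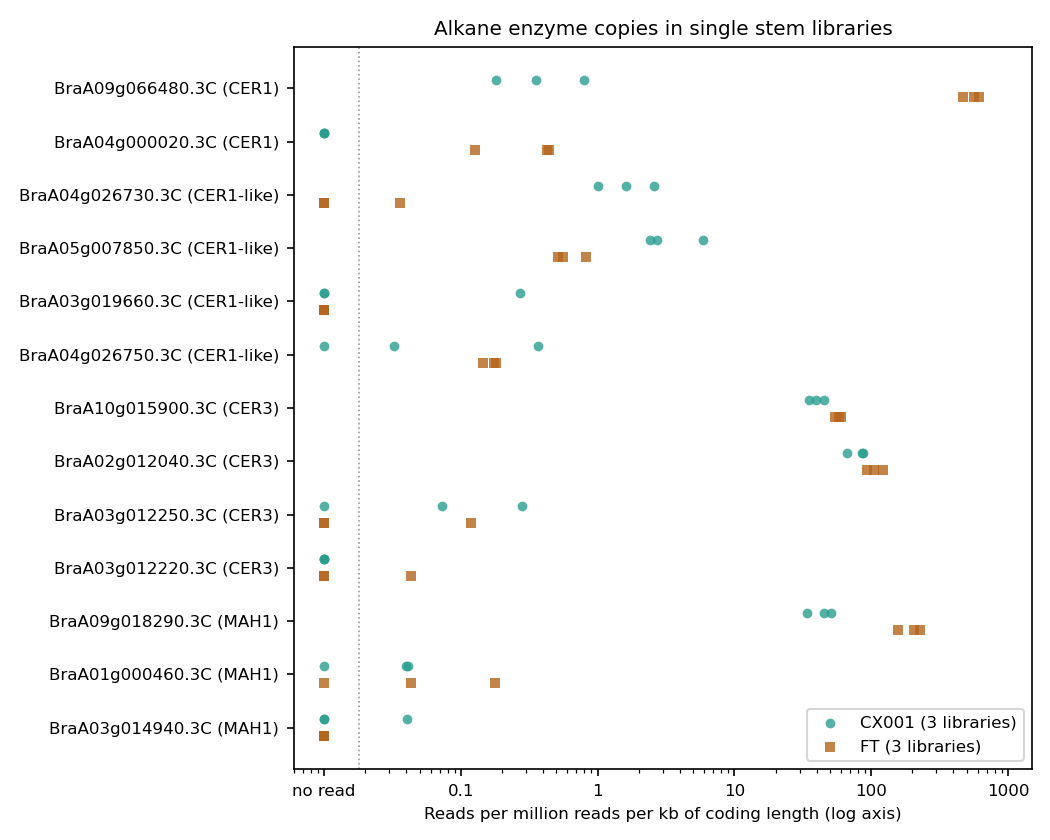
Level of each of the 13 copies in single libraries, in RPKM on a log axis, with circles for ‘CX001’ above squares for ‘FT’ and libraries without a read at the left of the dotted line. The *CER1* copy *BraA09g066480.3C* lies between 0.182 and 0.796 in ‘CX001’ and between 468 and 619 in ‘FT’, whereas the 2 strong *CER3* copies differ little between the lines.

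*BraA09g066480.3C* (*CER1*), whose Arabidopsis counterpart is the core of the alkane-forming complex, was close to unread in ‘CX001’ stems. It lies on A09 from 45147722 to 45152449 on the plus strand, with a coding length of 2052 bases. Its libraries held 6, 12 and 24 reads in ‘CX001’, against 14811, 17143 and 18976 reads in ‘FT’. The ‘CX001’ libraries were all low and the ‘FT’ libraries all high, with no overlap. Groups without overlap, in either direction, were seen in 57.0% of all genes tested. The level was 0.444 ± 0.317 RPKM in ‘CX001’ and 551 ± 76.1 RPKM in ‘FT’ (SD, n = 3 each). By level, it ranked 25589 in ‘CX001’ and 216 in ‘FT’ among the resolved genes. The fitted log2 fold change was -10.32 (SE 0.43, adjusted p = 3.1e-06 from limma), and the ‘CX001’ mean was 0.0846% of the ‘FT’ mean (exact 95% interval 0.0594% to 0.112%, counting error only). Without ‘CX001’ library C the share was 0.0509%.

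The few ‘CX001’ reads of this copy differed between libraries. Library A held 6 reads (exact Poisson 95% interval 2.20 to 13.1) and library C held 24 (15.4 to 35.7), although library C was the least deeply read of the line. Of the 3666 resolved genes with an ‘FT’ mean of at least 1000, 11 had a ‘CX001’ mean under 0.5% of it, this copy among them, and it ranked 3 among them from the lowest share. The other 10 together held 50, 54 and 47 reads in ‘CX001’ libraries A, B and C, which does not repeat the order of *BraA09g066480.3C*.

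The other gene named *CER1*, *BraA04g000020.3C*, was weakly read. It lies on A04 from 3868 to 7844 on the minus strand and has a coding length of 1071 bases. No read fell on it in any ‘CX001’ library, against 7, 2 and 7 reads in ‘FT’. It met the read minimum through its ‘FT’ reads alone, so the test adds little to these counts. The test put it lower in ‘CX001’ (log2 fold change -2.52, SE 0.58, adjusted p = 0.0082 from limma). Its ‘FT’ mean was 4.99 times the value of ‘CX001’ set at a floor of 3 reads over the line. That ratio leaves out counting error and is not a lower bound. Its name rests on the best protein match only. The other *CER1* match carries the KEGG entry for the alkane-forming enzyme, as do the 4 CER1-like copies, and this gene does not.

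The CER1-like 2 copies, relatives of *CER1*, moved in the opposite direction where they moved, from a far lower level. *BraA04g026730.3C* (A04, 18954840 to 18960176, minus strand) had 49, 81 and 28 reads in the ‘CX001’ libraries, against 0, 1 and 0 reads in ‘FT’. It was thus read in every ‘CX001’ library and all but absent from ‘FT’. It met the read minimum through its ‘CX001’ reads, so the test adds little to these counts. The log2 fold change was 5.28 (SE 0.52, adjusted p = 1.2e-04 from limma). With a single ‘FT’ read, the ratio of the means was 160, with an exact interval of 28.0 to 6281 for counting error.

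*BraA05g007850.3C* (A05, 4011299 to 4015826, plus strand) was the most strongly read CER1-like copy in both lines. Its libraries held 82, 181 and 66 reads in ‘CX001’, against 16, 14 and 23 reads in ‘FT’, again without overlap. The log2 fold change was 2.45 (SE 0.42, adjusted p = 0.0019 from limma). Both copies that rose were highest in ‘CX001’ library B. The ratio of their levels, A05 over A04, was 1.69, 2.26 and 2.38 in ‘CX001’ libraries A, B and C.

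The remaining CER1-like copies were near the limit of detection. *BraA04g026750.3C* (A04, 18970624 to 18974710, minus strand), next to *BraA04g026730.3C* in gene order, had 11, 1 and 0 reads in ‘CX001’ and 5, 4 and 5 reads in ‘FT’. Its groups overlapped, and its log2 fold change of -0.99 (95% interval -2.95 to 0.97) did not pass (adjusted p = 0.37 from limma). Without ‘CX001’ library A, which held nearly all of its ‘CX001’ reads, it passed as lower in ‘CX001’ (-2.0, adjusted p = 0.024 from limma). *BraA03g019660.3C* (A03, 9331673 to 9334914, minus strand) had 8, 0 and 0 reads in ‘CX001’ and none in ‘FT’, too few for the test. That ‘CX001’ library A held both of these excesses was seen after the values were known. The counting software's treatment of reads that fit several copies is not given in the sources used here, so reads could be split between near-identical copies.

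**Figure D2:**
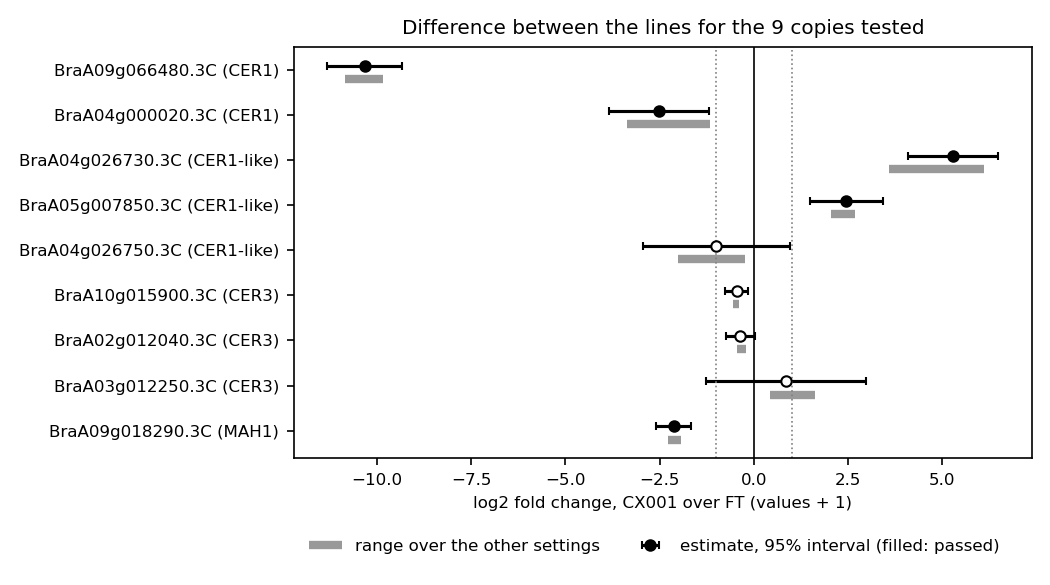
Log2 fold change of ‘CX001’ over ‘FT’ for the 9 copies tested, with 95% intervals, filled points for copies that passed, and grey bars for the range over the other settings tried. *BraA09g066480.3C* stands alone near -10.32, 2 CER1-like copies lie above 1, and the 2 strong *CER3* copies lie between -1 and 0.

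*CER3*, the partner of *CER1* in alkane formation, was read in both lines from the same 2 copies. *BraA02g012040.3C* (A02, 5790866 to 5794471, minus strand) had 2016, 2678 and 2423 reads in ‘CX001’, against 2700, 3412 and 2986 reads in ‘FT’. Its level was 79.6 ± 11.7 RPKM in ‘CX001’ and 107 ± 14.7 RPKM in ‘FT’ (SD, n = 3 each), and its log2 fold change of -0.36 (95% interval -0.74 to 0.02) did not pass (adjusted p = 0.11 from limma). *BraA10g015900.3C* (A10, 12430816 to 12434043, plus strand) had 1205, 1106 and 1262 reads in ‘CX001’, against 1592, 1619 and 1692 reads in ‘FT’. The groups did not overlap and its adjusted p was 0.023 from limma, but the log2 fold change of -0.46 (95% interval -0.77 to -0.15) was under the fold minimum. At any fold, 47.0% of all genes tested had an adjusted p under 0.05, and 57.0% had groups that did not overlap.

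The 2 strong *CER3* copies kept similar proportions in the lines. The level of the A02 copy over that of the A10 copy was 1.67, 2.42 and 1.92 in ‘CX001’ libraries A, B and C, against 1.70, 2.11 and 1.76 in ‘FT’, with overlap. The other *CER3* matches lie together on A03 and were hardly read. *BraA03g012250.3C* (5233529 to 5236773, minus strand) had 2, 0 and 7 reads in ‘CX001’ and 0, 0 and 3 in ‘FT’ (log2 fold change 0.85, 95% interval -1.26 to 2.97, adjusted p = 0.47 from limma). *BraA03g012220.3C* (5221017 to 5226460, minus strand) had no read in ‘CX001’ and 0, 2 and 0 in ‘FT’. Its coding length of 3117 bases exceeds that of the other *CER3* copies, which span 1701 to 1893 bases.

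*MAH1*, which acts on alkanes once they are made, was lower in ‘CX001’ stems in its single strongly read copy. *BraA09g018290.3C* (A09, 11594908 to 11596398, plus strand) had 816, 1110 and 1122 reads in ‘CX001’, against 3628, 5004 and 4622 reads in ‘FT’. Each ‘CX001’ library lay below each ‘FT’ library, and 57.0% of all genes tested were separated in either direction. The level was 43.4 ± 8.72 RPKM in ‘CX001’ and 197 ± 35.6 RPKM in ‘FT’ (SD, n = 3 each), and the log2 fold change was -2.12 (SE 0.20, adjusted p = 1.0e-04 from limma). *BraA01g000460.3C* (A01, 229565 to 231076, minus strand) had 1, 1 and 0 reads in ‘CX001’ and 1, 4 and 0 in ‘FT’. *BraA03g014940.3C* (A03, 6669229 to 6670725, plus strand) had 0, 1 and 0 reads in ‘CX001’ and none in ‘FT’. Neither had enough reads for the test, and differences between the lines were not detectable at this depth.

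Summed over copies, the enzymes differed in how far apart the lines were. The *CER1* matches summed to 0.444 ± 0.317 RPKM in ‘CX001’ and 551 ± 76.1 RPKM in ‘FT’. The CER1-like copies summed to 5.65 ± 2.61 RPKM in ‘CX001’ and 0.811 ± 0.172 RPKM in ‘FT’. That ‘CX001’ sum was 1.03% of the level of *BraA09g066480.3C* in ‘FT’. The *CER3* copies summed to 120 ± 13.5 RPKM in ‘CX001’ and 164 ± 16.4 RPKM in ‘FT’, and the *MAH1* copies to 43.5 ± 8.70 RPKM in ‘CX001’ and 197 ± 35.6 RPKM in ‘FT’ (SD, n = 3 each). These sums are descriptions, with no test.

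**Figure D3:**
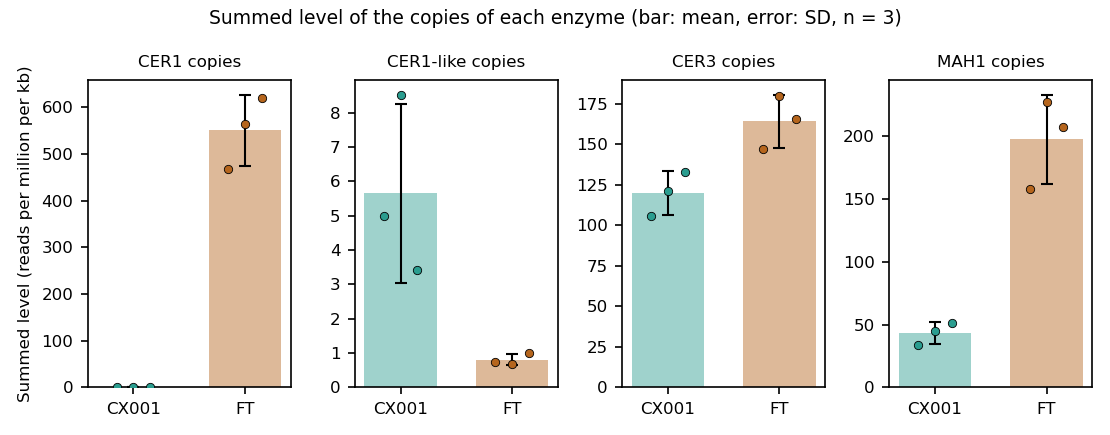
Summed level of the copies of each enzyme, ‘CX001’ left of ‘FT’, in RPKM, with the mean as a bar, the SD as error bar and libraries A, B and C as points; each panel has its own axis from 0. *CER1* is near 0 in ‘CX001’ and at 551 in ‘FT’, and the CER1-like sum of 5.65 in ‘CX001’ is higher than in ‘FT’ on an axis that ends below 10.

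The make-up of the *CER1* family and its proportion to *CER3* also differed. *BraA09g066480.3C* made up 7.28% of the summed level of *CER1* and CER1-like copies in ‘CX001’ and 99.8% in ‘FT’. By library, its share was 3.51%, 3.98% and 18.8% in ‘CX001’ libraries A, B and C, against 99.8%, 99.9% and 99.8% in ‘FT’. The ‘CX001’ value rests on library C, without which it was 3.81%. *BraA05g007850.3C* made up 60.4% in ‘CX001’ and 0.114% in ‘FT’, and *BraA04g026730.3C* 28.6% in ‘CX001’ and 0.00217% in ‘FT’. The *CER3* sum was 19.7 times the sum of *CER1* and CER1-like copies in ‘CX001’ and 0.297 times that sum in ‘FT’. Levels of different genes are compared here per length, and a transcript level says nothing of the amount of enzyme. In whole stems, fewer expressing cells and less RNA per cell cannot be told apart from these levels alone. For *BraA09g066480.3C*, the study reports loss of the gene itself from the ‘CX001’ genome.

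By position, the copies were spread over 7 chromosomes, with 4 on A03, 3 on A04 and 2 on A09. *BraA09g066480.3C* is the last of the 4785 genes that the table lists on A09, and *BraA04g000020.3C* is the first of 2303 on A04. The genes before *BraA09g066480.3C* did not pass. *BraA09g066470.3C*, a match to a mannosyltransferase of protein glycosylation 3914 bases away, differed by -0.51 on the log2 scale (adjusted p = 0.12 from limma). *BraA09g066460.3C*, matched to the vesicle traffic protein RABD2a, had 0.11, and *BraA09g066450.3C*, matched to a tRNA-modifying enzyme, had 0.20.

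Neighbours of copies on different chromosomes often carried the same names. *BraA04g026730.3C* and *BraA05g007850.3C* each lie within 3 genes of a match to FAR-RED ELONGATED HYPOCOTYL 1, which acts in phytochrome A signalling. The A04 pair and *BraA03g019660.3C* lie near a match to phosphoribosylaminoimidazole carboxylase of purine synthesis. The *CER3* copies on A02, A03 and A10 all lie within 3 genes of a match to Myosin-binding protein 7. The pair on A04 is 10447 bases apart, and the *CER3* pair on A03 is 7068 bases apart.

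Among the 60 genes within 3 places of any of the 13 copies that are not copies themselves, 50 were tested, 6 were higher and 9 were lower. These 15 calls among 50 genes are close to the share over all genes, 30.2%. Around the 5 copies that passed, 18 neighbours were tested, 1 was higher and 2 were lower, which is 16.7% of a small set. Beside *BraA04g026730.3C*, which was higher in ‘CX001’, *BraA04g026700.3C* (the FAR-RED ELONGATED HYPOCOTYL 1 match) was lower (-4.16, adjusted p = 3.8e-04 from limma), as was *BraA04g026780.3C*, matched to the autophagy kinase ATG1c (-1.96, adjusted p = 0.044 from limma), while *BraA04g026720.3C* just before the copy had 0.30 and did not pass. The call of *BraA04g026780.3C*, with no read in ‘CX001’ and 1, 9 and 2 reads in ‘FT’, was lost in 5 of 11 other settings. Beside *BraA05g007850.3C*, *BraA05g007890.3C*, an uncharacterized protein, was higher (6.50, adjusted p = 2.5e-04 from limma), and *BraA05g007870.3C* next to the copy had 0.12. No tested neighbour of *BraA09g018290.3C* passed.

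The other calls lay beside copies that did not pass. Around *BraA03g019660.3C*, the receptor kinase match *BraA03g019670.3C* was lower (-4.93), as was *BraA03g019630.3C*, matched to the leaf regulator AS1 (-1.01), and the aldo-keto reductase match *BraA03g019700.3C* was higher (1.18). *BraA04g026820.3C*, beside *BraA04g026750.3C*, was higher (5.67). Around the *CER3* copies, *BraA02g012050.3C* (3.19) and *BraA03g012290.3C* (1.33) were higher, and *BraA02g012000.3C* (-3.78), *BraA03g012270.3C* (-1.38), *BraA10g015890.3C* (-1.73) and the Myosin-binding protein 7 match *BraA10g015930.3C* (-1.11) were lower. Beside the *MAH1* match on A03, *BraA03g014930.3C* was higher (1.35) and *BraA03g014950.3C*, matched to a low-temperature-induced protein, was lower (-3.18). Of these calls, that of *BraA03g019630.3C* was lost in 4 of 12 other settings. Those of *BraA03g012270.3C* and *BraA10g015890.3C* were each lost in 5 of 12. The neighbours that did not pass are given by their number.

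**Figure D4:**
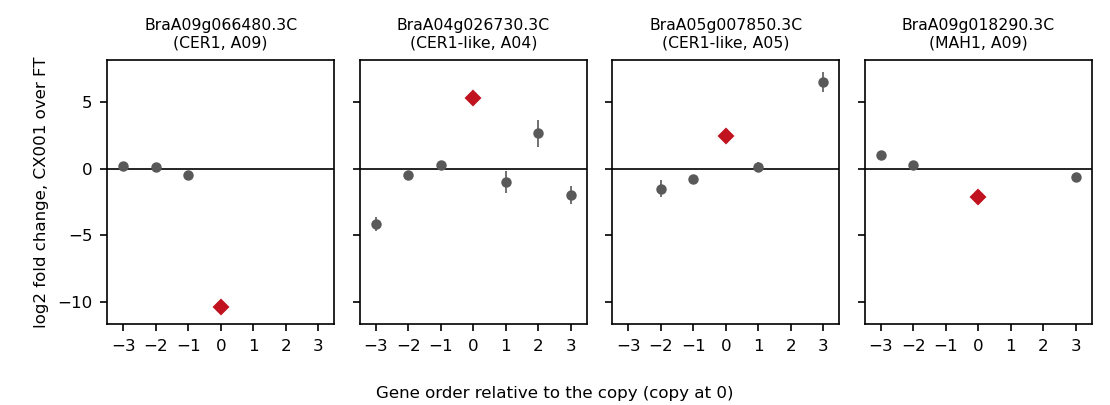
Log2 fold change of ‘CX001’ over ‘FT’, with its standard error, for 4 copies that passed (diamonds at 0) and the tested genes up to 3 places before and after them (circles). The genes next to *BraA09g066480.3C* lie between -0.51 and 0.20 while the copy lies at -10.32, and no gene follows it on A09.

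Likeness to each copy that passed was measured over the 6 libraries, as the Euclidean distance of log2(normalized count + 1), among resolved genes with a protein match. Nearest to *BraA09g066480.3C* were matches to Glycine-rich protein 3 (*BraA10g009750.3C*, distance 2.86), the lipid carrier LTP3 (*BraA02g011080.3C*, 3.24) and the protease SBT3.13 (*BraA03g049640.3C*, 4.21). The first of these had a mean normalized count of 6.98 in ‘CX001’ and 7195 in ‘FT’. Nearest to *BraA04g026730.3C* were 3 genes without a read in ‘FT’, *BraA10g026330.3C* (1.11), *BraA02g012990.3C* (1.12), a match to the membrane-anchored LLG1, and *BraA09g059950.3C* (1.14). Nearest to *BraA05g007850.3C* were matches to the abscisic acid receptor PYL4 (*BraA03g020010.3C*, 0.93), to GRR1-like protein 1 (*BraA09g001190.3C*, 1.02) and to PLIM2b (*BraA09g066280.3C*, 1.03). Nearest to *BraA09g018290.3C* were a galactokinase (*BraA05g038870.3C*, 0.72), a protein of the nascent chain complex (*BraA07g015450.3C*, 0.79) and the *LACS1* match *BraAnng003720.3C* (0.91), which belongs to the same wax pathway. For *BraA04g000020.3C*, at 0 in ‘CX001’ and with a mean of 5.35 in ‘FT’, the nearest genes were *BraA03g036530.3C* (0.17), *BraA03g008280.3C* (0.36) and *BraA02g026670.3C* (0.60), and at such counts many genes look alike.

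The steps that feed the alkane enzymes were in part lower in ‘CX001’. Of 13 tested genes of acyl-CoA elongation and activation, 7 were lower, 1 was higher and 5 did not pass, with a median log2 fold change of -1.03, against 0.01 over all genes tested. The 8 calls are 61.5% of them, against 30.2% of all genes tested. *BraA01g015290.3C*, matched to *CER2*, which lets the elongase make the longest chains, had 437, 614 and 452 normalized counts in ‘CX001’, against 1247, 1675 and 1987 in ‘FT’ (log2 fold change -1.70, adjusted p = 3.4e-04 from limma). The study's text lists *BraA01g015290.3C* among the genes up-regulated in ‘CX001’, opposite to these values. *BraAnng003720.3C*, matched to the acyl-CoA synthetase *LACS1*, was also lower (-1.47, adjusted p = 2.5e-04 from limma). Both were lower in each ‘CX001’ library than in each ‘FT’ library. Such a separation, in either direction, was seen in 57.0% of all genes tested. The other *LACS1* match, *BraA05g000610.3C*, had a mean of 1993 normalized counts in ‘CX001’ and 1258 in ‘FT’ and did not pass (0.62, adjusted p = 0.060 from limma).

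Matches of the same name did not always move together. For PASTICCINO 2, the dehydratase of the elongase, *BraA03g004300.3C* was lower (-1.41, adjusted p = 6.2e-04) and *BraA10g027410.3C* higher in ‘CX001’ (1.82, adjusted p = 3.9e-04, both from limma). The condensing enzyme KCS6 (CUT1) was lower in both matches, *BraA09g037930.3C* (-1.03, adjusted p = 0.0050) and *BraA07g030740.3C* (-1.06, adjusted p = 0.014, both from limma). Those calls sit at the fold minimum. The *KCS1* match *BraA10g000750.3C* (-1.05, adjusted p = 0.048) and the *CER26* match *BraA04g008210.3C* (-1.08, adjusted p = 0.045, both from limma) passed barely. The other *KCS1* match, *BraA09g065990.3C*, had 0.21 and did not pass (adjusted p = 0.41 from limma). Without ‘CX001’ library A, the first KCS6 match had -0.90 and the second -0.86, and neither passed. The first also failed without ‘FT’ library C (-0.81), and the second without ‘CX001’ library B (-0.98) or ‘FT’ library B (-0.87). The *KCS1* call was lost without ‘CX001’ library A or B or any ‘FT’ library (adjusted p = 0.094 to 0.14), and the *CER26* call without ‘CX001’ library B or C or any ‘FT’ library (adjusted p = 0.077 to 0.14, all from limma).

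In the competing branch and in export, 0 of 2 and 0 of 8 genes found by name passed by limma, with 1 and 3 of them at an unadjusted p under 0.05. For comparison with these small sets, and with the cytochrome b5 genes below, 30.2% of all genes tested passed. No row matched the wax ester synthase name that was searched, so the branch holds *FAR3* matches only. The *FAR3* match *BraA01g004350.3C*, at the entry to primary alcohols, lay at -0.84 on the log2 scale (adjusted p = 0.0074 from limma), under the fold minimum. The other *FAR3* match, *BraA08g016400.3C*, varied within ‘CX001’, with 6.61, 196 and 662 normalized counts, against 41.4, 11.6 and 14.8 in ‘FT’. All 8 genes found by the export names, matches to ABCG11, ABCG12 and the anchored lipid carriers LTPG1 and LTPG2, were tested, and their median log2 fold change was -0.49. The study reports as lower in ‘CX001’ an ABCG12 gene that is not among these matches. Of 8 cytochrome b5 genes, 1 passed, the isoform B match *BraA03g017290.3C*, with 14, 9 and 31 reads in ‘CX001’ and 0, 2 and 0 in ‘FT’ (3.55, adjusted p = 0.0032 from limma).

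**Figure D5:**
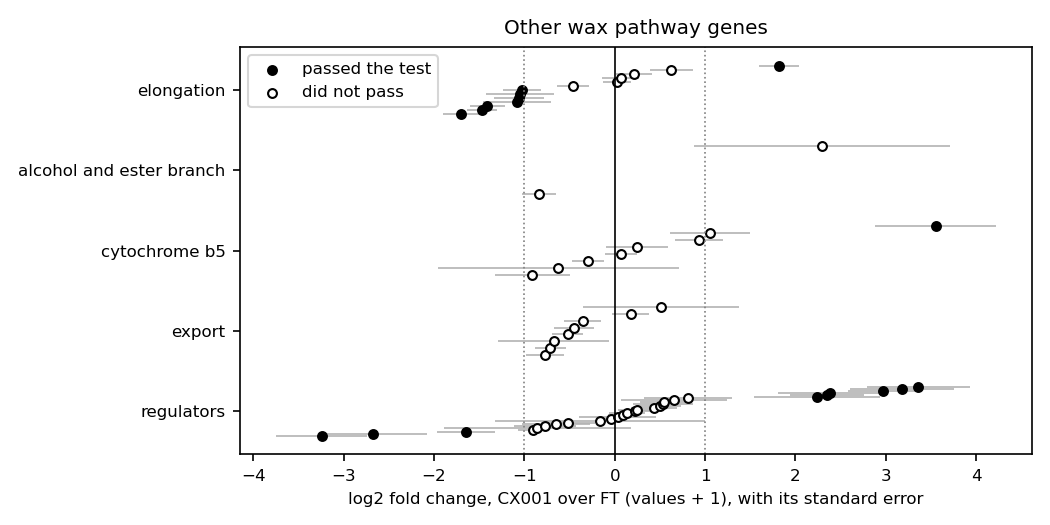
Log2 fold change of ‘CX001’ over ‘FT’, with its standard error, of the 58 tested wax pathway genes outside the alkane enzymes, by role. Filled points passed, and the dotted lines mark the fold minimum. In elongation 7 points passed below -1 and 1 above 1, while none passed in the alcohol branch or in export.

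Of 27 tested regulators of wax genes, 6 were higher, 3 were lower and 18 did not pass. The 9 calls are 33.3% of them, near the 30.2% of all genes. Of the 27, 17 carry the name SUD1, a loose match, and of these 3 were higher and 1 lower. The 33.3% therefore rests largely on that name. Of 5 matches to MYB30, an activator of very-long-chain fatty acid synthesis, 3 were higher in ‘CX001’. They were *BraA02g038430.3C* (3.36, adjusted p = 0.0019), *BraA06g036730.3C* (2.97, adjusted p = 5.1e-04) and *BraA09g007290.3C* (2.35, adjusted p = 0.0021, all from limma). The first of them had 87, 117 and 112 reads in ‘CX001’, against 17, 3 and 14 in ‘FT’. The MYB30 matches *BraA02g043710.3C* (-0.77, adjusted p = 0.098) and *BraA09g003630.3C* (0.53, adjusted p = 0.22, both from limma) did not pass, and the former leaned the other way. *BraA06g011410.3C*, matched to WIN1, an activator of cuticle genes, had 1, 0 and 0 reads in ‘CX001’ and 9, 11 and 13 in ‘FT’ (-3.24, adjusted p = 0.0013 from limma).

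*BraA02g005970.3C*, matched to the cuticle regulator MYB16, was also lower (-2.68, adjusted p = 0.0074 from limma). Other matches to these names, the WIN1 match *BraA09g058770.3C* (0.65, adjusted p = 0.38) and the MYB16 match *BraA10g024080.3C* (0.25, adjusted p = 0.36, both from limma), did not pass. The name of the ubiquitin ligase SUD1 (CER9) was shared by 19 genes, which is more than a single gene's copies would give, so the name is loose there. Of these, 3 were higher (*BraA01g005410.3C*, *BraA03g032850.3C* and *BraA02g010250.3C*), 1 was lower (*BraA06g024100.3C*) and 2 had too few reads. The call of *BraA02g010250.3C* was lost without ‘CX001’ library B or C or any ‘FT’ library (adjusted p = 0.055 to 0.10 from limma). No row's best protein match is named MYB94 or MYB96, and names here are best matches, so a gene that the study calls MYB96 counts under MYB30. Over all 58 partner genes tested, 8 were higher and 10 lower, with a median log2 fold change of 0.03. These 18 calls are 31.0% of them, near the 30.2% of all genes tested. Without the SUD1 matches, 41 were tested, 5 were higher and 9 lower, with a median of -0.35.

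Wax enzymes are epidermal, and the epidermal share of the stems was looked at with marker genes. Of 16 epidermis markers, 14 were tested and 0 passed by limma (4 at an unadjusted p under 0.05), with a median log2 fold change of -0.14, and their summed normalized counts were 3262 to 3880 in ‘CX001’ and 2717 to 4444 in ‘FT’. Copies of *HDG2*, *BraA05g012550.3C* and *BraA04g023220.3C*, were at or near 0. The *PDF1* match *BraA05g003100.3C* had 425, 32 and 1 reads in ‘CX001’, against 17, 25 and 14 in ‘FT’, so ‘CX001’ libraries differed among themselves. Of 11 xylem markers, 6 were higher and none lower in ‘CX001’, with sums of 8005 to 13317 in ‘CX001’ and 4413 to 5822 in ‘FT’, and no marker at 0. Without ‘CX001’ library B, or without ‘FT’ library B, 3 xylem markers passed. Their sum was highest in ‘CX001’ library B, as were both CER1-like copies that rose. Of 7 phloem markers, 1 passed, the *APL* match *BraA07g026240.3C* (-3.67, adjusted p = 7.8e-04 from limma), with sums of 8902 to 11100 in ‘CX001’ and 6431 to 9894 in ‘FT’. For comparison with these marker counts, 14.6% of all genes tested were higher and 15.6% lower in ‘CX001’. The part of tissue make-up in the results for the alkane enzymes was not tested.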

How the data were processed

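RNA of stems was sequenced by the authors on an Illumina Hiseq4000, aligned to the *B. rapa* genome V3.0 with HISAT2 and compared with DESeq2. TopHat2 appears beside it in the notes on processing that the submitters gave. Transcripts were assembled and levels calculated with StringTie. Which program gave the counts behind the table, and how it treated reads that fit several genes, is not given in the sources used here. The signal values in the deposited table are the authors' means, per line, of counts divided by size factors. The authors' fold changes, p-values and calls, also held there, were not used. Since the means carry 15 digits, the whole reads of 3 libraries were worked out as the only sums of read steps, among those searched, that give a mean. For low means all splits between the libraries were searched. For higher means the search was limited to a range around an even split. Where that range gave no solution, all splits were searched, except at the highest means. A single solution inside the range was taken as the only one. Of the genes, 33037 were resolved in ‘CX001’ and 33043 in ‘FT’, and 33020 in both. The 40 genes per line with a mean over 20000 were not searched. Unresolved genes held 7.44% of the summed mean in ‘CX001’ and 8.46% in ‘FT’. With shifted steps, 0 of 3105 genes in ‘CX001’ and 0 of 3210 in ‘FT’ gave a solution, a control that left out the genes with the lowest and highest means. For *BraA09g066480.3C* in ‘FT’, 0.161 splits were expected by chance within the range searched, and 1 was found.

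limma 3.58.1 (R 4.3.3, trend, two-sided) was run on log2(normalized count + 1) over genes with at least 10 reads, because the deposited values are line means and not counts. In data simulated for ‘CX001’ against ‘FT’ over 28707 genes, 186 of 200 genes changed 4-fold were recovered, with 9 false calls. Reads are not independent molecules, so counting intervals cover counting error only. RefSeq symbols were found for 6 of the 13 copies through protein accessions (CAAS_Brap_v3.01) and are not used as names. Named are all copies, partner genes that passed, the 3 genes nearest to each passing copy, and, of the 3 genes on each side of a copy, those that passed and a few others, plus markers and other genes chosen after their values were seen. The rule asked for every neighbour; those left out are given by counts only. Members and lists were chosen with earlier results of these data known. Alternatives were other pseudocounts, filters, scalings, voom weights, no fold minimum and leaving out each library. Python 3.11.15, numpy 2.4.6, pandas 2.3.3, scipy 1.17.1, numba 0.67.0 and matplotlib 3.10.9 were used. Mapping, PCR and wax data were not analysed here.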

Additional observations from a re-analysis of the deposited data

How the results depend on the processing

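All 5 copies that passed kept their direction and passed under each alternative in which they were tested. *BraA04g000020.3C* fell under the read minimum without ‘FT’ library A or without ‘FT’ library C. The log2 fold change of *BraA09g066480.3C* ranged from -10.84 to -9.84, that of *BraA09g018290.3C* from -2.28 to -1.94, that of *BraA04g000020.3C* from -3.37 to -1.17, that of *BraA04g026730.3C* from 3.60 to 6.09 and that of *BraA05g007850.3C* from 2.05 to 2.69. Leaving out single libraries gave 4 to 6 copies that passed, 14 to 17 partner genes against 18, and 7640 to 8506 genes in all against 8660. With no fold minimum, 13503 genes passed. The summed level of *CER1*, CER1-like and *CER3* copies had a log2 ratio of -2.51 (‘CX001’ over ‘FT’), and of -0.40 without *BraA09g066480.3C*, by construction. Of the 18 partner calls, 13 held under every alternative and 5 were lost under some, for *BraA09g037930.3C*, *BraA07g030740.3C*, *BraA10g000750.3C*, *BraA04g008210.3C* and *BraA02g010250.3C*, each at least once when a library was left out. Leaving out the genes named SUD1, an alternative chosen after seeing the data, left 14 partner calls. The median log2 fold change of all genes was 0.01 with the authors' size factors, -0.04 with library totals and 0.03 with the upper quartile. No paired analysis was possible because the library letters carry no pairing between the lines. The edgeR alternative was planned only for columns that pass a check for whole reads, and was not run, since the line means did not pass it. Copies with under 10 reads could not be compared at this depth.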

Other observations

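The genes that shared the pattern of *BraA09g066480.3C*, well read in ‘FT’ and close to unread in ‘CX001’, came from several protein families. By ‘CX001’ share of the ‘FT’ mean, below it stood *BraA02g011070.3C* (0.0225%) and *BraA01g007780.3C* (0.0787%), the second a UPF0725 protein match. Just above it stood *BraA02g011080.3C* (0.0946%) and *BraA10g009750.3C* (0.0970%), the Glycine-rich protein 3 match. *BraA02g011070.3C* and *BraA02g011080.3C* are matched to the lipid-transfer proteins LTP4 and LTP3, which bind lipids outside the cell. *BraA07g039340.3C*, a Defensin-like protein 3 match, had 3, 1 and 2 reads in ‘CX001’ and 1524, 1383 and 1616 in ‘FT’. *BraA06g043050.3C*, a match to the epithiospecifier protein that directs glucosinolate breakdown, had 3, 3 and 5 reads in ‘CX001’ and 1769, 1676 and 1829 in ‘FT’. These genes were picked by their values, so no test is given.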
